A study of Mus musculus with 12 samples.

Results

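The genes described here encode the machinery that copies chromosomes in S phase. They are 44 genes, taken by gene symbol from the 28793 genes of the deposited RPKM table (reads scaled by gene length and by the library's total), and they were followed through all 12 libraries. In crypt epithelium of the mouse large intestine all 44 stood higher in both libraries from late-generation Tert-null mice than in both from heterozygous mice, as did 74.7% of all tested genes. The linear ratio of the means ran from 1.33 for Rfc2 to 2.77 for Gins1, with a median of 1.94. The libraries of the 2 genotypes also differed in sex, and the libraries labelled reactivated split between the 2 levels.

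Replication starts at origins, where the origin recognition complex, Cdc6 and Cdt1 load the ring of Mcm2 to Mcm7 in G1 phase. Cdc45 and the GINS complex join the ring to make the active helicase, and primase, polymerases, the sliding clamp Pcna and its loader follow at the fork. Many of these genes are transcribed at the step from G1 to S phase under E2F factors, and in the colon the dividing cells lie in the lower part of the crypt.

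The labels give C57BL/6 mice aged 3 months for every library, with 1 of 3 states of Tert, the catalytic subunit of telomerase. From GFP-sorted crypt cells, labelled as stem or progenitor cells, there were 3 libraries of heterozygous mice and 3 of Tert-null mice of generation 3 (null G3). From unsorted crypt epithelial cells there were 2 libraries of heterozygous mice, 2 of generation 4 Tert-null mice (null G4) and 2 of generation 4 labelled reactivated, whose descriptions read G4tam. The heterozygous libraries, described as G0, carry 1 null allele by their label, so none of the groups is wild type. The sources used here do not give the GFP reporter, what G4tam stands for or the animals behind each library. The labels call the libraries biological replicates, so the p-values measure only the spread between these libraries. In such bulk samples a larger share of dividing cells and more RNA per dividing cell cannot be told apart.

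Tert, the targeted gene, was at 0.459 and 0.251 RPKM in the unsorted heterozygous libraries and at 0.00778 and 0.0377 in null G4. The libraries labelled reactivated had 0.0171 and 0.0311 RPKM of Tert, within the null G4 range, so Tert RNA did not bear out that label and it is kept below as a label only. In sorted cells Tert ran from 0.0424 to 0.169 RPKM in heterozygous libraries and was 0, 0.0787 and 0.00131 in null G3 replicates 1 to 3. Null G3 replicate 2 therefore lay inside the heterozygous range, Tert did not separate the sorted groups, and null G3 is likewise kept as a label. Whether the deposited Tert row covers the deleted part of the gene is not known.

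Several facts about the libraries touch the results below. Xist and the Y-linked genes put both unsorted heterozygous libraries and the library labelled reactivated replicate 2 on the male side (summed Y-linked 18.2 to 18.9 RPKM) and both null G4 libraries and reactivated replicate 1 on the female side (Xist 22.3 to 28.6 RPKM). Null G3 replicate 2 was the only sorted library on the male side, with 8.54 RPKM of summed Y-linked genes. Null G3 replicate 1 stood apart from all other libraries: its 7 small intestinal enterocyte markers summed to 5338 RPKM where the other 5 sorted libraries had 85.5 to 130.4, its stem cell markers to 2.37 against 26.8 to 46.8, and Lgr5 was at 0.121 RPKM against 3.40 to 4.74. The mitochondrial ribosomal RNAs took 38.7% to 71.9% of summed RPKM in sorted and 10.8% to 27.3% in unsorted libraries. The steps between low RPKM values implied read totals of 74.8 to 103.3 times 1000000 in unsorted libraries, and a less certain 149.3 to 247.7 times that unit in sorted ones. The sorted and unsorted sets list different genes and appear to have been normalized separately.

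By level per gene length, Mcm6, a subunit of the helicase ring, was highest in each unsorted group and Pcna in both sorted groups. In unsorted heterozygous libraries Mcm6 was at 15.2 and 14.8 RPKM, Pcna at 12.5 and 13.8 and Rfc2, a clamp loader subunit, at 12 and 13.1. Pcna and Rfc2 overlapped, whereas both Mcm6 values lay above them. At the other end stood Cdc6 at 1.06 and 0.966 RPKM, Gins2 at 1.06 and 0.939, Gins3 at 0.687 and 0.875 and Fen1 at 0.3655 and 0.2796. Fen1, the flap endonuclease that trims Okazaki fragments, was listed at no more than 0.00985 RPKM in any sorted library. Of its exon bases 78.8% are overlapped by the antisense gene Gm10143, and whether the counting used strand is not stated in the sources used here, so its values are uncertain. The same holds for Gins2 (67.3% overlapped by Gse1) and Chaf1a (52.5% by Ubxn6). Fen1 was the 1 gene that did not reach the level for testing (1 RPKM, in a number of libraries equal to the smallest group), and Gins3 also missed it in sorted cells, leaving 43 genes tested in unsorted and 42 in sorted libraries.

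The 6 ring subunits form one complex with a single copy of each protein. Their RPKM, which measure RNA and not protein, were unequal. Mcm6 made up 28.7% to 29.9% of the Mcm2 to Mcm7 sum in the unsorted libraries and 29.7% to 38.3% in the sorted ones. Mcm5 took 16.0% to 17.9% in unsorted and 7.96% to 12.6% in sorted libraries, and Mcm4 10.4% to 12.2% and 15.5% to 17.99%. In all 6 unsorted libraries Mcm6 came first, Mcm5 next and Mcm4 last. The ranges of Mcm4 and Mcm5 did not overlap between the sets, which appear to have been normalized separately. A share within a library does not depend on the scaling of that library. The sets also list different genes, and whether single genes were counted alike in both was not tested.

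Promoter sequence was examined because E2F sites are a known shared feature of S phase genes. RefSeq windows (GRCm38.p6) were found for 37 of the 44 genes, and the 250 bases before the start were searched on both strands for TTTCCCGC, TTTGGCGC and TTTCGCGC, 3 forms of the E2F site that can overlap one another on opposite strands. They occurred in 10 of the 37 genes (27.0%), against 1.8% of 27025 genes with a window and 3.5% of those tested in unsorted libraries. The 10 genes were Mcm6, Mcm5, Mcm7, Orc1, Cdc6, Gins3, Pola1, Rfc3, Dnmt1 and Uhrf1. The CCAAT box (CCAAT) was present in 67.6% of the 37, against 37.5% of all genes and 40.6% of tested genes. The CHR element (TTTGAA) was present in 16.2%, against 18.3% and 12.6%, and TATAAA in 8.1%, against 14.3% and 7.9%. A match describes letters in the window and is no evidence of binding. Below are 100 bases of 6 of these promoters, shown because they hold sites in the licensing, helicase, polymerase and clamp loader groups; capitals mark the E2F letters, and each sequence is written 5′ to 3′ on the gene's strand.
Mcm6, chr1:128359725-128359824, minus strand: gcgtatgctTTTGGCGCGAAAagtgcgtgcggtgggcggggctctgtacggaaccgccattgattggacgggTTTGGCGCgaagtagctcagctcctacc
Mcm5, chr8:75109288-75109387, plus strand: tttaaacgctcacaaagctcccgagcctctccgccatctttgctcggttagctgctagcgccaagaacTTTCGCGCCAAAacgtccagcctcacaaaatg
Orc1, chr4:108579354-108579453, plus strand: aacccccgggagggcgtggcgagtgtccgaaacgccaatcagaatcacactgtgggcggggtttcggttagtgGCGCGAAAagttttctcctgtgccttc
Cdc6, chr11:98907941-98908040, plus strand: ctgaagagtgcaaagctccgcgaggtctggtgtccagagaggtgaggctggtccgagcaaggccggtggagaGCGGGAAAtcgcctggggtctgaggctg
Pola1, chrX:93632266-93632365, minus strand: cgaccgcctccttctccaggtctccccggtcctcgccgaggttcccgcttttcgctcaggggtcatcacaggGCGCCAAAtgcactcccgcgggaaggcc
Rfc3, chr5:151651209-151651308, minus strand: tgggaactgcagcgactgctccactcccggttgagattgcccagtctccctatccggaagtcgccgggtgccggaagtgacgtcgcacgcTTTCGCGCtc

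The Mcm6 promoter held 3 matches, which begin 110, 106 and 47 bases before the start, and the first pair overlap on opposite strands. The Mcm5 promoter held 2 that overlap in the same way, at 153 and 149 bases. In unsorted crypts the median log2 difference of null G4 minus heterozygous was 0.73 over the 10 with a match and 0.75 over 26 tested genes without one.

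The first comparison asks how the crypt epithelium of late-generation Tert-null mice differs from that of heterozygous mice, beginning with origin licensing. Orc6, a subunit of the origin recognition complex, was at 2.79 and 3.25 RPKM in heterozygous libraries and at 5.01 and 6.18 in null G4. Orc1, its largest subunit, was at 1.66 and 1.49 RPKM against 2.34 and 2.91. Both null G4 libraries lay above both heterozygous libraries for each gene, as they did for 74.7% of all tested genes. Cdc6 and Cdt1 bring the helicase to origins, and were at 1.06 and 0.966 RPKM against 1.96 and 2.20 and at 6.42 and 5.94 against 8.67 and 10.7. The 4 licensing genes had a median log2 difference (of mean log2(RPKM + 1), null G4 minus heterozygous) of 0.59.

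The helicase ring stood higher as a block. Mcm3 was at 7.35 and 6.64 RPKM in heterozygous libraries and 13.7 and 16.0 in null G4, and Mcm4 at 5.49 and 6.21 against 11.1 and 12.7. For Mcm6 the values were 15.2 and 14.8 against 27.9 and 32.2 RPKM, and for Mcm5 9.47 and 8.35 against 16.5 and 19.1. All 6 subunits were separated between the groups, as were 74.7% of all tested genes. Their log2 differences ran from 0.73 for Mcm7 to 0.99 for Mcm3, with a median of 0.92. Among the factors that activate the ring, Gins1 was at 1.05 and 1.11 RPKM against 2.57 and 3.39, and Mcm10, a fork scaffold, at 1.46 and 1.45 against 2.97 and 3.37. Cdc45, which binds the ring together with GINS, was at 2.46 and 2.45 RPKM against 5.30 and 6.20. Gins4, another subunit of GINS, showed the smallest gap of this group, at 4.54 and 5.602 RPKM against 6.32 and 7.73.

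Primase and polymerases covered a range of log2 differences from 0.36 to 0.86. Prim1, the catalytic primase subunit, was at 1.71 and 1.75 RPKM in heterozygous libraries and 3.88 and 4.04 in null G4, and Pola1, the catalytic subunit of polymerase alpha, at 1.87 and 1.90 against 3.85 and 3.66. Pola1 lies on the X chromosome, and the other 43 genes are autosomal. Pola2, the partner subunit of Pola1, had the smallest log2 difference of the 43 tested genes, with 4.67 and 5.02 RPKM against 5.75 and 7.30. Pold1, which carries the polymerase activity of delta, was likewise close, at 4.33 and 3.799 RPKM against 5.49 and 6.06. The clamp and its loader had log2 differences from 0.38 to 1.09. Pcna was at 12.5 and 13.8 RPKM against 27.4 and 30.5, and Rfc4, a loader subunit, at 2.46 and 2.65 against 6.23 and 6.87. Rfc2, a subunit of the same loader, was at 12 and 13.1 RPKM against 15.34 and 17.96, the smallest linear ratio of all 44.

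The proteins that protect single-stranded DNA and seal the lagging strand followed the same order. Rpa3 was at 3.88 and 5.03 RPKM in heterozygous libraries and 9.76 and 10.1 in null G4, and Rpa1 at 4.16 and 4.36 against 7.17 and 8.39. Lig1, the replicative DNA ligase, was at 5.46 and 4.72 RPKM against 8.89 and 9.20. Each of these genes was separated between the groups, as was Rpa2, the middle subunit of the same trimer, and as were 74.7% of all tested genes. In nucleotide supply, Rrm1, the large subunit of ribonucleotide reductase, had the largest log2 difference of the 43, with 7.55 and 8.21 RPKM against 17.8 and 21.7. Rrm2, the small subunit of that enzyme, was at 4.08 and 5.15 RPKM against 8.53 and 9.92. Tyms, thymidylate synthase, was at 2.73 and 2.55 against 4.784 and 5.604, and Tk1, thymidine kinase, at 4.80 and 4.41 against 6.77 and 7.51. Among the genes that rebuild chromatin behind the fork, Dnmt1, the maintenance DNA methyltransferase, was at 9.93 and 9.34 RPKM against 16.1 and 18.1, and its partner Uhrf1 at 8.04 and 7.98 against 14.8 and 17.0. Slbp, which binds the stem-loop of histone mRNAs, was at 4.03 and 4.498 RPKM against 7.13 and 7.11. Chaf1a, a subunit of the histone chaperone CAF-1, was at 2.84 and 2.72 against 5.39 and 5.78, with the overlap given above. The 5 chromatin genes had a median log2 difference of 0.77 and the 4 nucleotide genes one of 0.82.

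**Figure D1:**
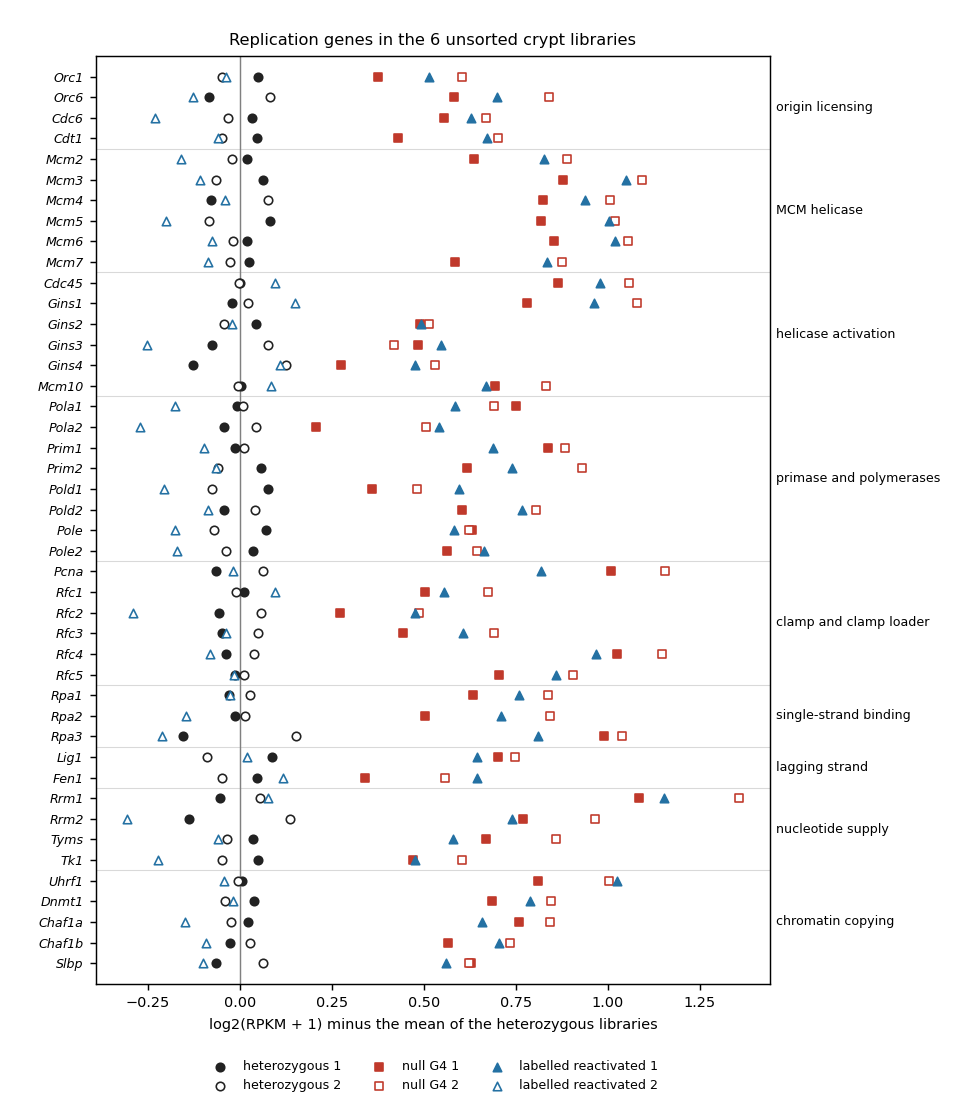
Each point is 1 unsorted library for 1 of the 44 genes, as log2(RPKM + 1) minus the mean of the 2 heterozygous libraries, with genes grouped by role. Both null G4 libraries (squares) lie to the right of both heterozygous libraries (circles) for every gene, where 74.7% of all tested genes show the same. The library labelled reactivated replicate 1 (filled triangles) lies right of both heterozygous libraries, and replicate 2 (open triangles) left of both null G4 libraries.

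All 43 tested genes were thus separated, where 74.7% of the 11464 tested genes stood above heterozygous in the same way. Much of that background is a shift of the whole library, since the median log2 difference was 0.36 over all tested genes and 0.73 over the 43. After the median of each library was set equal, 37 of the 43 were still separated, with a background of 35.5%. The 6 that were not were Gins3, Gins4, Orc1, Pola2, Pold1 and Rfc2. Beyond the background shift, 42 of the 43 lay above the median of all genes, Pola2 being the other. As a share of the summed RPKM of nuclear genes, the 44 genes made up 0.109% and 0.115% in heterozygous libraries and 0.183% and 0.199% in null G4.

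limma with all 6 unsorted libraries called 0 of the 43 at an adjusted p under 0.05, while it called 5.55% of all tested genes in either direction. At an unadjusted p under 0.05 it had 38 of the 43, against 44.2% of all genes. The smallest limma adjusted p among them was 0.0516 for Pcna, with a log2 difference of 1.08 ± 0.27 (SE), followed by Mcm10 at 0.76 ± 0.20 and Rrm1 at 1.22 ± 0.32, both with an adjusted p of 0.0527. The shared spread of that fit includes the 2 libraries labelled reactivated, which lie far apart for these genes. Fitted on the 4 libraries compared, limma called 40 of the 43 higher in null G4, where 49.2% of 11204 genes were called higher. By role, these were 4 of 4 licensing genes, 6 of 6 ring subunits, 5 of 6 activators, 7 of 8 primase and polymerase genes and 5 of 6 of the clamp and loader. All 3 single-strand binding genes, Lig1, the 4 nucleotide genes and the 5 chromatin genes were called as well. In that fit the standard error for Pcna was 0.15 and its adjusted p 0.00793, and the smallest adjusted p was 0.00356 for Rfc4. Gins4, Pola2 and Rfc2 were the 3 not called, with adjusted p of 0.0565, 0.0625 and 0.0659. With all 6 libraries but a minimum of 5 RPKM in place of 1, limma called 21 of 28 higher, with a background of 35.2%.

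**Figure D2:**
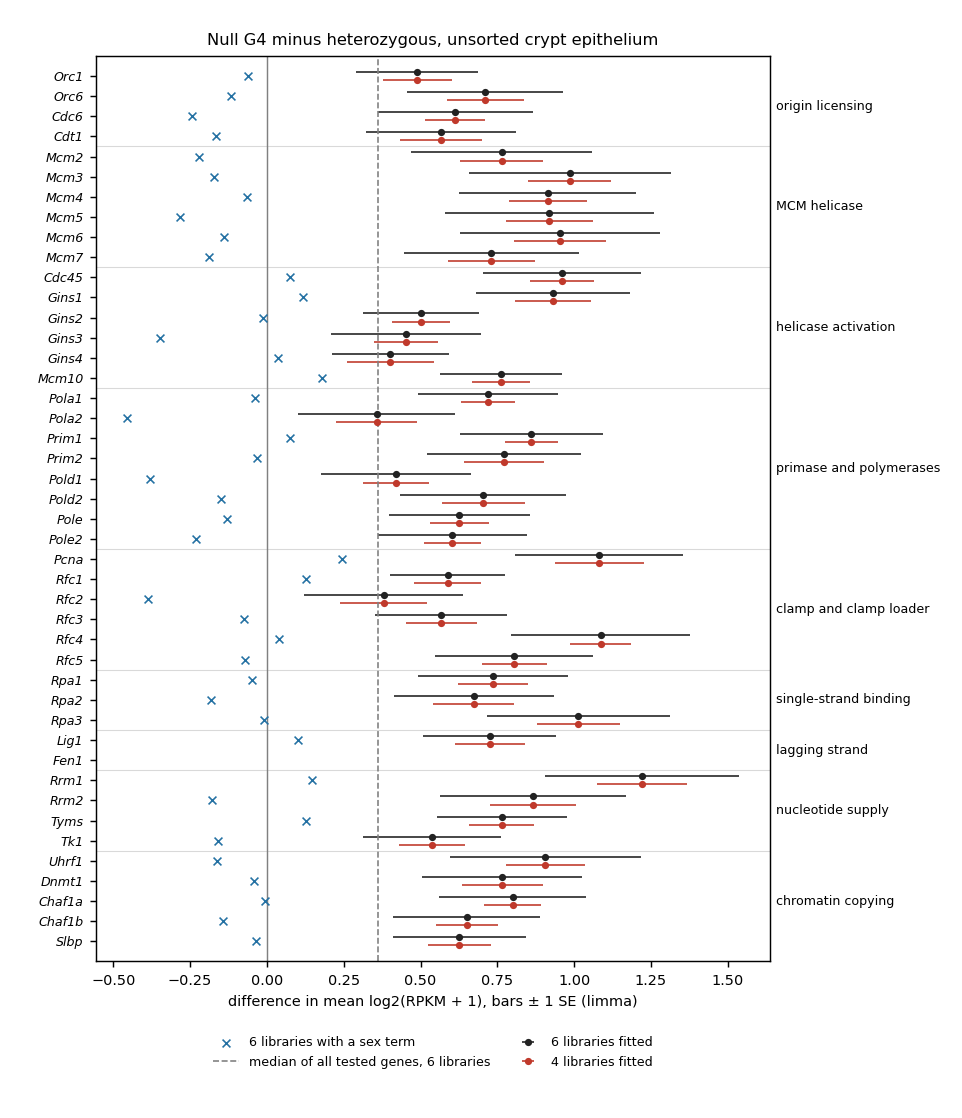
Difference in mean log2(RPKM + 1), null G4 minus heterozygous, for the 43 tested genes, with bars of 1 standard error from limma fitted on 6 libraries (black) and on the 4 compared (red). All differences lie above 0 and 42 lie above the median of all tested genes (dashed line, 0.36); crosses show the same difference from a fit with a sex term, with a median of -0.07.

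Sex and genotype cannot be told apart between these 2 groups, because both null G4 libraries were on the female side and both heterozygous libraries on the male side. Among unsorted groups, only the 2 labelled reactivated held a female and a male library. All 3 female libraries lay above all 3 male libraries in 43 of the 43 genes (background 63.7%), and after median scaling in 37 of 43 (background 22%). In a limma fit with a sex term, which rests on the pair labelled reactivated, the median log2 difference of null G4 minus heterozygous was -0.07 over the 43 genes and 0.09 over all genes. In that fit 11 of the 43 differences were above 0 and 32 below, where 7352 of the 11464 tested genes were above 0. The 32 held all 4 licensing genes, all 6 ring subunits and all 5 chromatin genes. limma gave 0 of the 43 an unadjusted p under 0.05, against 1212 of all tested genes, and their smallest adjusted p was 0.56. With the sex term, Pcna had the highest of the 43 differences at 0.25 and Pola2 the lowest at -0.46.

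The libraries labelled reactivated stand, by their label, for generation 4 epithelium with telomerase restored, and their 2 replicates disagreed. Replicate 1 had 31.4 RPKM of Mcm6, 23.9 of Pcna and 18.7 of Rrm1, while replicate 2 had 14.2, 13.0 and 8.37. Replicate 1 lay above both heterozygous libraries in 44 of 44 genes (background 81% of tested genes), with a median log2 difference from the null G4 mean of 0.02. Of the 43 tested genes it had 5 above both null G4 libraries (background 26.8%) and 12 below both (background 32%). Replicate 2 lay below both null G4 libraries in 44 of 44 (background 78.2%), at a median of 48.3% of the null G4 mean, and its median log2 difference from the heterozygous mean was -0.08. It lay below both heterozygous libraries as well in 29 of 43 (background 22.6%). The ratio of replicate 1 to replicate 2 ran from 1.34 for Gins4 to 3.25 for Gins3, with a median of 2.10. It was above 1 for every gene. Summed over the 44, heterozygous libraries had 203.1 and 205.9 RPKM, null G4 libraries 356 and 410.4, and the pair labelled reactivated 382.7 and 189.9.

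By role, the pair labelled reactivated (replicate 1, then replicate 2) gave the following levels for the genes named above. In licensing, Orc6 was at 5.51 and 2.67 RPKM and Orc1 at 2.68 and 1.51. In the ring and its activators, Mcm3 was at 15.5 and 6.41, Mcm4 at 12.1 and 5.65, Gins1 at 3.05 and 1.31, Mcm10 at 2.90 and 1.60 and Gins4 at 7.41 and 5.53. Gins4 is the gene with the narrowest gap in this pair. Prim1 was at 3.40 and 1.55 RPKM, Pola1 at 3.32 and 1.55 and Pola2 at 7.51 and 3.85, and Pola2 in replicate 1 exceeded both null G4 values. The clamp loader subunits Rfc4 and Rfc2 were at 5.95 and 2.36 and at 17.8 and 10.1 RPKM, the single-strand binding subunits Rpa3 and Rpa1 at 8.51 and 3.68 and at 7.90 and 4.17, and Lig1 at 8.50 and 5.17. Tyms was at 4.43 and 2.49 RPKM, Dnmt1 at 17.4 and 9.49 and Chaf1a at 4.96 and 2.41, so replicate 1 was the higher of the pair for each of these genes too.

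Against null G4, the libraries labelled reactivated gave 0 of 43 calls with limma (background 0.0262%), with 5 of 43 at an unadjusted p under 0.05 (background 2.7%). The median log2 difference was -0.40, against -0.14 over all genes. The extremes were Rpa3 at -0.71 ± 0.30 (SE) and Gins4 at -0.11 ± 0.19. Without replicate 1, limma called 15 of 43 lower (background 1.42%), among them Rpa3 at -1.22, Rrm2 at -1.17 and Rfc4 at -1.17. That fit and the next that leaves out a replicate hold 1 library labelled reactivated, which is assumed to vary like the heterozygous and null G4 pairs that supply the spread. In each of these fits that library also differs in sex from both libraries it is set against. Sex and label therefore cannot be told apart there. Against heterozygous libraries the result was again 0 of 43 (background 1.27%), with 0 of 43 at an unadjusted p under 0.05 (background 14.1%). The median was 0.31, against 0.22 over all genes. Rrm1 had the largest difference, 0.61 ± 0.32, and Rfc2 the smallest, 0.09 ± 0.26. Without replicate 2, limma called 39 of 43 higher than heterozygous (background 19.8%), all but Gins4, Pola2, Rfc2 and Tk1. These comparisons share libraries with the first and are not independent of it.

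Most other genes of the replication pathway that were tested also stood higher in null G4. Of a list of 53 further replication and G1/S genes, 49 were tested in unsorted libraries and 48 had both null G4 libraries above both heterozygous ones (background 74.7%). With limma 3 of the 49 rose at an adjusted p under 0.05, where 570 of all 11464 tested genes rose, a similar share. The 3 were E2f2, an activator of S phase genes, Ccna2, the S phase cyclin, and Asf1b, a histone chaperone. E2f2 was at 1.84 and 1.86 RPKM in heterozygous libraries against 7.44 and 7.57 in null G4, with 6.89 and 2.76 for the pair labelled reactivated. Its log2 difference was 1.58 ± 0.29 (SE, limma adjusted p 0.0284) for null G4 minus heterozygous. Ccna2 was at 8.53 and 9.39 against 21.6 and 24.6 RPKM (limma adjusted p 0.0406), and Asf1b at 2.06 and 2.23 against 5.27 and 6.18 (0.0456). Dbf4, the activating subunit of the Cdc7 kinase, and E2f8, a repressor of S phase genes, had log2 differences of 0.85 and 0.77 with limma adjusted p of 0.0526 and 0.0549. Dbf4 was at 1.62 and 1.90 against 3.74 and 4.20 RPKM, and E2f8 at 1.94 and 1.81 against 3.70 and 4.10. E2f1 was at 0.984 and 0.931 against 1.28 and 1.56 RPKM (limma adjusted p 0.183), and the cell cycle inhibitor Cdkn1a overlapped between the groups at 7.98 and 14.9 against 14.7 and 15.0. The median log2 difference of the 49 was 0.55, between that of all genes and that of the 43. With the sex term the median of the 49 was 0.0053, against 0.093 over all genes, with 25 differences above 0 and 24 below. limma then called 0 of the 49, where 59 of the 11464 tested genes rose.

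Markers of G2 phase and mitosis moved with the replication genes. All 10 of them had positive differences, as did 9867 of the 11464 tested genes. With limma 8 of 10 rose, against 570 of those 11464. The RPKM of the 10 markers summed to 87.8 and 86.2 in heterozygous libraries. The sums were 165.8 and 184.9 for null G4, and 149.9 and 90.5 for replicates 1 and 2 labelled reactivated. All unsorted libraries on the female side thus lay above all on the male side, so sex and genotype cannot be told apart here either. Mki67 was at 20.4 and 19.6 RPKM against 40.1 and 41.7, a log2 difference of 1.00 ± 0.22 (SE, limma adjusted p 0.0442). Of markers of other cells, 1 of 6 tested small intestinal enterocyte markers passed (Rbp2, which fell). Of 9 tested goblet cell rows 1 passed, with 4 differences positive and 5 negative. It was Fcgbp, which fell from 442.1 and 383.0 RPKM in heterozygous libraries to 180.8 and 183.5 in null G4 (limma adjusted p 0.0398). None passed among 4 colon stem cell, 7 surface colonocyte, 3 leukocyte and 1 stromal markers tested. All 6 enterocyte differences were negative, and that list summed to 94.1 and 276.0 RPKM in heterozygous libraries against 74.0 and 80.7 in null G4. Heterozygous replicate 2 also had the highest surface colonocyte sum, 3676 RPKM against 1087 to 1685 in the other 5. Leukocyte markers summed to 3.98 and 10.1 RPKM in heterozygous libraries against 5.53 and 4.93 in null G4, and fibroblast and endothelial markers to 1.91 and 3.55 against 4.02 and 4.79, with Pdgfra and Cdh5 at under 0.05 RPKM in all 6. The part of other cells in the replication gene differences was not tested.

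**Figure D3:**
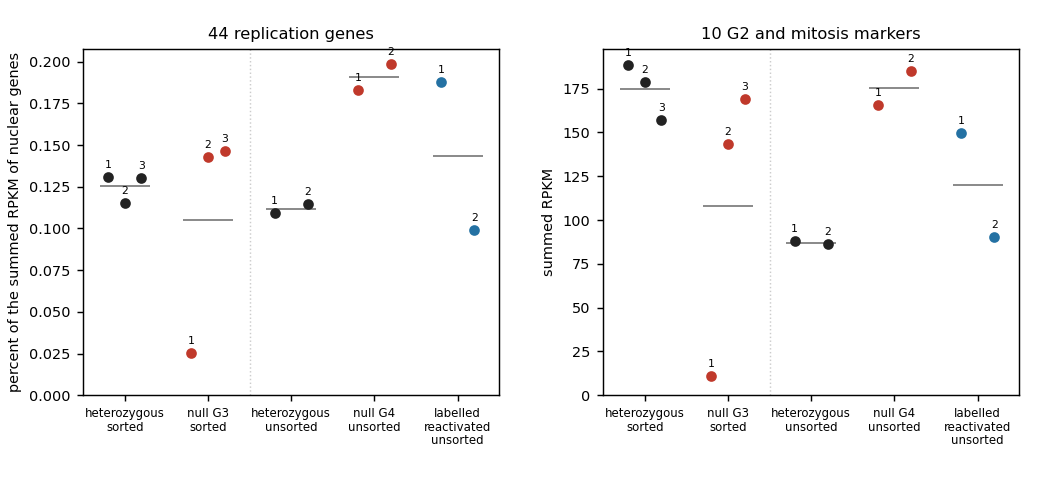
Summed level per library (points, numbered by replicate, with a line at each group mean): left, the 44 replication genes as a percent of the summed RPKM of nuclear genes; right, the summed RPKM of 10 G2 and mitosis markers. Null G3 replicate 1 is lowest in both panels (0.0251% and 11.0 RPKM), and the pair labelled reactivated is split in both; the dotted line parts the sorted from the unsorted set.

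In sorted cells the comparison of null G3 with heterozygous mice gave no call. limma passed 0 of 42 genes and 0 of all 8734 tested (0%), and at an unadjusted p under 0.05 it had 0 of 42, against 1.64% of all genes. The largest difference was that of Uhrf1, a partner of Dnmt1 at newly copied DNA, at -1.16 ± 0.68 (SE), and the smallest that of Pold1, the catalytic subunit of polymerase delta, at -0.35 ± 0.34. Uhrf1 was at 10.3, 10.9 and 5.49 RPKM in heterozygous libraries and 0.339, 4.83 and 9.07 in null G3, and Pold1 at 1.63, 1.02 and 1.07 against 0.0783, 0.815 and 1.68. The groups overlapped for both, and in none of the 42 genes did all 3 null G3 libraries lie below all heterozygous ones (background 12.6%).

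The 3 null G3 libraries had 3 different levels. In replicate 1 all 42 genes lay below the other 5 sorted libraries (background 79.2%), and 35 of 42 did after median scaling (background 33.6%). Its median was 6.96% of the heterozygous mean. Mcm6 was at 1.56 RPKM there against 15.3 to 26.8 in the other 5, and Pcna at 5.04 against 16.6 to 28.8. This is the library with the high enterocyte and low stem cell markers given above, and Mki67 was at 4.74 RPKM in it against 61.6 to 75.2. Replicate 2 lay below all heterozygous libraries in 31 of 42 genes (background 72%) at a median of 67.4% of their mean, and replicate 3 was at a median of 109.6%. Replicate 3 lay above all heterozygous libraries in 11 of 42 genes (background 12.5%) and below all in 0 of 42 (background 18.1%). As a share of nuclear RPKM the 44 genes made up 0.1309%, 0.1155% and 0.1303% in heterozygous libraries and 0.0251%, 0.143% and 0.147% in null G3, so replicates 2 and 3 were not low on that scale. Without replicate 1 the median log2 difference moved from -0.74 to -0.15, and that of all genes from -0.46 to -0.19.

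Among the named licensing genes, in sorted heterozygous libraries Orc6 was at 3.08, 3.81 and 2.24 RPKM and in null G3 replicates 1 to 3 at 0.365, 1.97 and 4.06, and Orc1 at 2.69, 1.98 and 1.52 against 0.0193, 0.868 and 1.84. Mcm3 was at 11.8, 11.7 and 6.40 against 0.514, 6.53 and 11.4 RPKM, Mcm4 at 12.3, 11.8 and 8.73 against 0.724, 7.48 and 12.2, Gins1 at 2.39, 1.92 and 1.96 against 0.198, 1.93 and 2.72, and Mcm10 at 1.34, 2.10 and 1.42 against 0.124, 1.06 and 1.61. Null G3 replicate 1 was lowest for each, while replicate 3 lay above all heterozygous libraries for Orc6 and Gins1. Prim1 was at 4.19, 4.43 and 3.18 against 0.384, 3.11 and 4.54 RPKM and Pola1 at 2.82, 2.93 and 2.20 against 0.138, 2.21 and 2.90. Pcna was at 26.9, 28.1 and 18.3 against 5.04, 16.6 and 28.8 RPKM and Rfc4 at 6.13, 5.18 and 2.92 against 0.465, 3.75 and 4.96. Replicate 3 passed the heterozygous maximum for Prim1 and Pcna and stayed inside the range for Pola1 and Rfc4. Rpa3 was at 5.58, 9.71 and 5.78 against 0.988, 6.13 and 7.70 RPKM, Rpa1 at 3.70, 3.53 and 2.47 against 0.269, 2.36 and 3.69, and Lig1 at 17.1, 17.5 and 11.5 against 1.30, 10.9 and 16.8. Rrm1 was at 18.97, 16.4 and 10.4 against 0.902, 10.5 and 16.5 RPKM, Tyms at 4.52, 4.82 and 3.28 against 0.2997, 3.42 and 5.16, Dnmt1 at 19.5, 15.4 and 10.9 against 0.963, 9.93 and 16.1, and Chaf1a at 2.74, 2.82 and 1.81 against 0.152, 0.937 and 2.77. Heterozygous replicate 3 was the lowest of its group for most of these genes but not for Gins1, Mcm10 and Rpa3, and null G3 replicate 2 lay just above it for Mcm3, Pola1 and Rrm1.

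**Figure D4:**
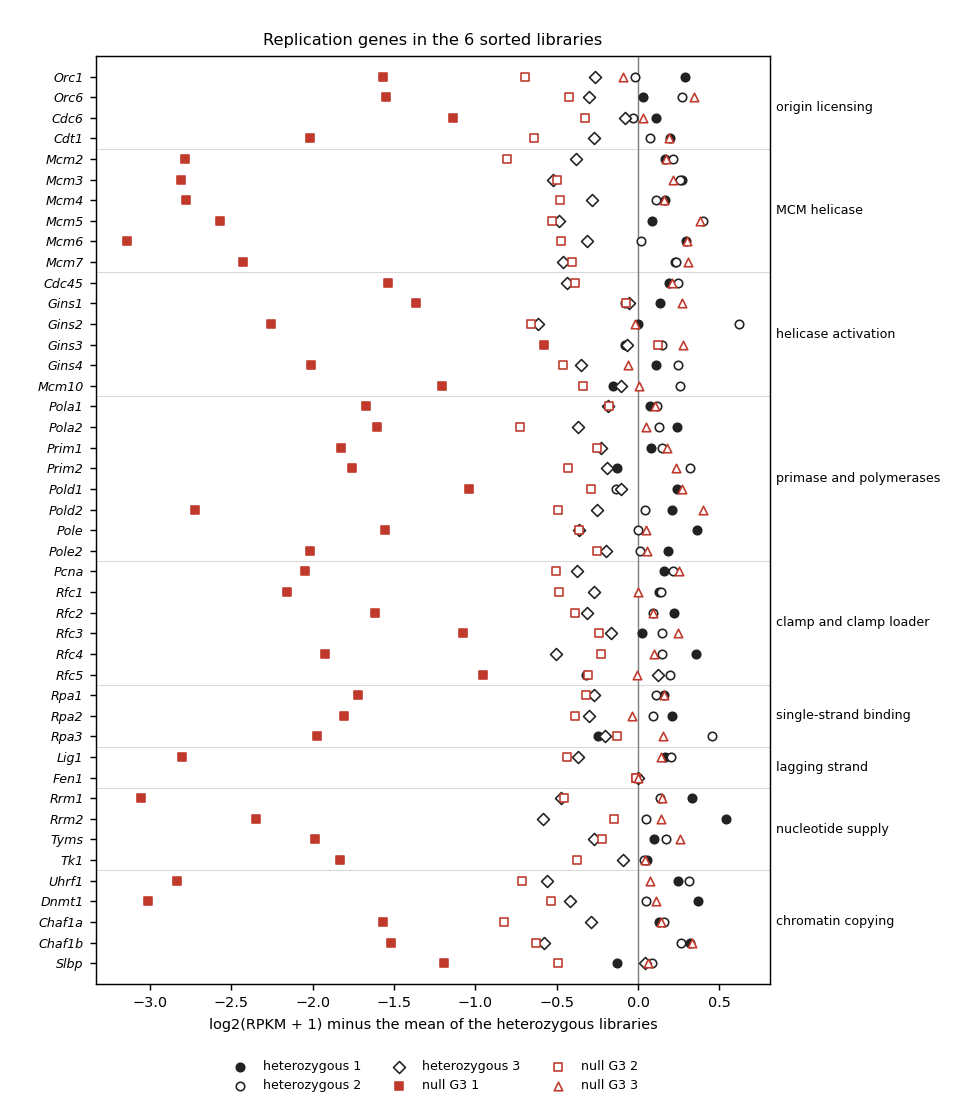
Each point is 1 sorted library for 1 of the 44 genes, as log2(RPKM + 1) minus the mean of the 3 heterozygous libraries. Null G3 replicate 1 (filled squares) lies far to the left of the others for all genes but Fen1, which is close to 0 RPKM in every library. Replicate 2 lies below all 3 heterozygous libraries in 31 of the 42 tested genes, where 72% of all tested genes do the same. Replicate 3 lies below them in none, with a background of 18.1%.

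The effect in unsorted crypts minus that in sorted cells was tested over all 12 libraries, which differ in generation and sex as well as in sorting. It passed in 0 of 43 genes (background 0.303%), with 13 of 43 at an unadjusted p under 0.05 (background 26.1%). The median was 1.42 on the log2 scale, against 0.73 over all genes. Rrm1 had the largest value, 2.34 ± 1.06 (SE), and Gins3, another GINS subunit, the smallest, 0.51 ± 0.39. Gins3 was at 0.467, 0.721 and 0.480 RPKM in sorted heterozygous libraries and 0.0373, 0.686 and 0.881 in null G3, against 0.687 and 0.875 in unsorted heterozygous and 1.49 and 1.38 in null G4. Sex differs between the unsorted groups compared and within null G3. With a sex term the median of the 43 was 1.34, against 0.65 over all genes. limma then had 0 of the 43 at an unadjusted p under 0.05, against 544 of 11862 genes. Without null G3 replicate 1 the median of the 43 was 0.84, against 0.52 over all genes, and limma called 0 of the 43. Of all 11824 genes in that fit 197 were called higher and 15 lower. Without replicate 3, which leaves replicates 1 and 2 as null G3, limma called 28 of 43 higher (background 29.5%). Replicate 1 is the library with the high enterocyte and low stem cell markers, and replicate 2 is the only sorted library on the male side. The part of either in these calls was not tested.

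Sorted and unsorted heterozygous libraries are compared as a description only, since the sets appear to have been normalized separately. All 3 sorted heterozygous libraries were also on the female side and both unsorted ones on the male side. Sorting and sex therefore cannot be told apart here. All 3 sorted libraries lay above both unsorted ones in 19 of 43 genes (background 20%) and below both in 7 (background 54.9%). The median log2 difference, sorted minus unsorted, was 0.28 over the 43 genes, 0.82 over the 10 G2 and mitosis markers and -0.38 over all genes. Lig1 had a mean of 15.3 ± 3.37 RPKM (SD, n = 3) in sorted cells and 5.09 in unsorted crypts, a ratio of 3.01, and Pcna one of 24.4 ± 5.36 against 13.1. Prim1 had a ratio of 2.27. The other direction was led by Pold1, with 1.24 ± 0.34 RPKM against 4.07, a ratio of 0.30, and by Rfc2, Rfc5 and Rfc3 at 0.38, 0.59 and 0.70. The genes did not all lie on one side: of the 5 loader subunits, Rfc1 and Rfc4 stood higher in sorted cells and the other 3 lower.

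**Figure D5:**
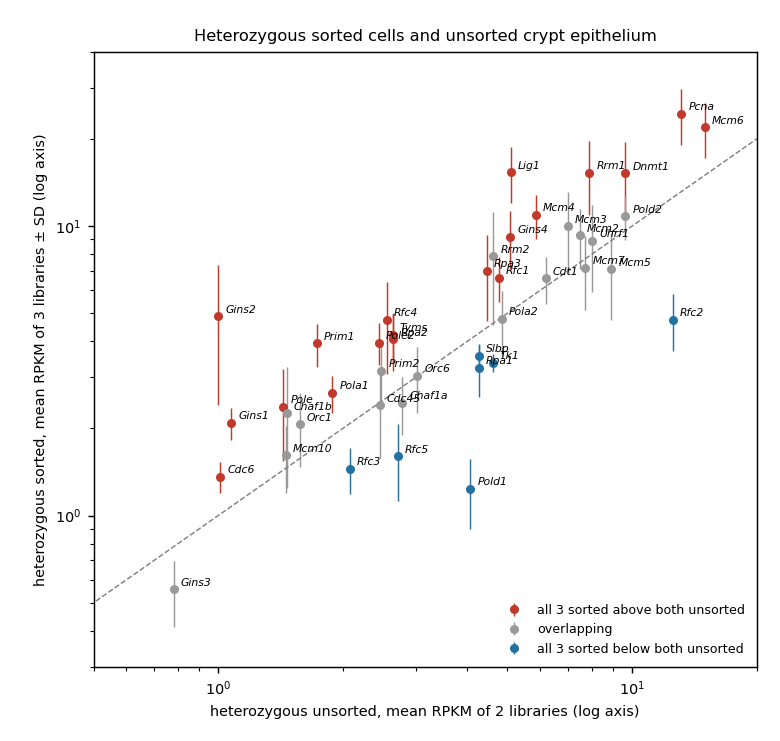
Mean RPKM of 43 replication genes (Fen1 left out) in heterozygous unsorted crypts (2 libraries) and heterozygous sorted cells (3 libraries, bars ± SD), on log axes with a dashed line of equality. Colours mark genes whose sorted libraries all lie above (19) or below (7) both unsorted ones; Rfc2 and Pold1 lie furthest below the line, Gins2 and Lig1 furthest above.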

How the data were processed

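RNA was taken with the Qiagen RNeasy kit and made into TruSeq libraries, per the labels' protocols. STAR 2.3.0e and mm10 appear in the submitters' processing notes with no role stated; which annotation and counter were used, and whether with strand, is not given in the sources used here. RPKM values were deposited by the authors in 1 table for 12 libraries, and no count test was run. Of the gene identifiers 97.9% were found in GENCODE M21, which gave the exon overlaps.

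Values were tested as log2(RPKM + 1) in R 4.3.3 by limma 3.58.1 (two-sided moderated test from a linear model, with a mean trend). The Benjamini-Hochberg adjustment covered all genes at 1 RPKM or more in as many libraries as the smallest group holds. Sorted libraries were fitted as 6, unsorted as 6, and the difference of effects over 12. Low values counted as whole reads within a tolerance of 0.05, for up to 5 reads. The fits were tested on simulated data. Python 3.11.15, pandas 2.3.3, numpy 2.4.6 and matplotlib 3.10.9 did the rest.

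The 44 genes, the list of 53 and the marker lists were chosen with earlier results of these data known. Named by rule were the 2 genes of smallest unadjusted p per role in null G4 against heterozygous, the extremes of each comparison, and the 5 of smallest p of the 53. Mcm5, Mcm6, Cdc6, Cdt1, Cdc45, Gins2, Pold1, Rrm2, Tk1, Uhrf1, Slbp, Fen1, E2f1, the summed levels and the genes of the sorted against unsorted comparison were added after values were seen. Alternatives changed the pseudocount, the filter, the scaling, the libraries fitted, the replicate block and a sex term. The sex term in sorted cells and the median-scaled separation counts were chosen after seeing the data. Sequences are from RefSeq (GRCm38.p6).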

Additional observations from a re-analysis of the deposited data

How the results depend on the processing

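The count of genes higher in null G4 than in heterozygous unsorted libraries (0 of 43 with 6 libraries) was 21 with a minimum of 5 RPKM, 40 with only the 4 libraries compared and 20 with a replicate block, and ran from 0 to 40 when 1 library was left out. The replicate block left the other counts of the 44 genes at an adjusted p under 0.05 at 0. Deviations of same-numbered libraries correlated at -0.19 to 0.22, so the numbers were not taken to pair libraries. Of the 49 further replication genes 3 rose, against 43 with 4 libraries, 12 with the block, 11 of 21 at 5 RPKM, 1 with nuclear totals set equal, and 0 with no filter, quantile normalization, median scaling or the sex term; leaving out 1 library gave 1 to 43. The median of the 43 minus that of all genes went from 0.37 to -0.16 with the sex term. Leaving out 1 library gave 0 to 15 genes lower in the libraries labelled reactivated than in null G4, 0 to 39 higher than in heterozygous, and 0 to 28 higher for the difference of effects. Leaving out a library labelled reactivated removes the spread between that pair, and a library left alone in its group is assumed to vary like the other groups; other causes were not tested.

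With the sex term 32 of 43 null G4 differences were negative, where 4112 of 11464 tested genes were, and limma gave 0 of the 43 an unadjusted p under 0.05. Among the named genes they included Orc6 (-0.12), Orc1 (-0.062), Mcm4 (-0.064), Mcm3 (-0.17), Pola1 (-0.039), Rpa3 (-0.0093), Rpa1 (-0.048), Chaf1a (-0.0066), Dnmt1 (-0.041) and Pola2 (-0.46). Pola2 was also at -0.035 with quantile normalization and -0.0018 with median scaling. Under those 2 scalings Pold1 in sorted cells was at 0.064 and 0.15, Gins4 in reactivated minus null G4 at 0.041 and 0.039, and Rfc2 in reactivated minus heterozygous at -0.23 and -0.12. With nuclear totals set equal Rfc2 was at -0.012, and with the sex term Gins4 was at 0.073 and Rfc2 at -0.29. Leaving out 1 library gave -0.29 to 0.073 for Gins4 and -0.29 to 0.48 for Rfc2. Gins3 in the difference of effects was at -0.28 with median scaling. Of the other settings of single genes 288 kept their side of the threshold and 77 passed where the fit of all libraries did not, and 228 settings of counts and medians moved by less than the spread between libraries. The median minus that of all genes went in sorted cells from -0.28 to 0.037 without null G3 replicate 1 and -0.65 with no filter, and in reactivated minus null G4 from -0.26 to 0.034 with the sex term. In reactivated minus heterozygous it went from 0.082 to -0.17 with the sex term.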
